A study of Mus musculus with 16 samples.

Results

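The cells described here are those that the authors' annotation names CD8+_effectors, a class of CD8 T lymphocytes found in subcutaneous NB9464D mouse neuroblastoma. They were taken by that name alone, and they number 396 of 20376 annotated cells. NB9464D is a transplantable neuroblastoma line of C57BL/6 mice. Male C57BL/6 hosts were 8 weeks old at inoculation, and tumors were taken on day 28 and dissociated with collagenase at 1 mg/mL. Hosts were either wild type (WT) or knockout (KO), and each tumor was loaded either as CD45+ sorted leukocytes or as total tumor cells. That gives 4 groups, called WT sorted and KO sorted, and WT tumor and KO tumor, which all carried the same line and received no drug according to the labels. The genotype field of the labels names the CD200 receptor as the deleted gene, while the growth protocol names CD200. The expression matrix was made with 10x Genomics 3' chemistry, in which each captured transcript is counted once by its unique molecular identifier (UMI). The labels list 4 samples in each group, but the cells carry only 1 library name per group. Each group was therefore 1 library here, no difference between groups has a replicate check, and no p-value is given. The level of a gene in a class is its UMIs per 1000000 UMIs of that class in the library, written CPM. Intervals are exact 95% intervals and cover counting error only.

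CD8 T cells recognise peptides on MHC class I through the T cell receptor, the CD3 complex and the CD8 coreceptor. After activation they become effectors, which lose the naive homing program, gain chemokine receptors for inflamed tissue, and kill with perforin and granzymes. CD200 is a membrane protein that restrains leukocytes carrying its receptor, CD200R, which is best known from myeloid cells.

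WT sorted held 150 effectors, KO sorted 175, WT tumor 10 and KO tumor 61. Their summed UMIs were 781535, 648170, 28530 and 164406 in that order, and their median UMIs per cell were 4842, 3276, 2660 and 2133. The KO sorted library was shallower in every class compared here, with medians of 3874 against 5942 in the CD8 T cells and 5411 against 8715 in NK cells. The median share of ribosomal protein UMIs was 29.2% in WT sorted effectors and 19.0% in KO sorted ones, and it was also lower in KO sorted for CD8 T cells (44.9% and 29.5%), NK cells (26.0% and 19.7%) and B cells (31.0% and 18.8%). Across libraries, 113 cell barcodes recurred in 307 cells, among them 1 WT sorted and 2 KO sorted effectors.

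The deleted gene was read first. Cd200r1, the gene of the CD200 receptor, had 2888 UMIs over all cells of WT sorted and 0 in KO sorted, where 3 UMIs would be a level of 0.103 CPM. WT tumor had 76 UMIs and KO tumor 5. Cd200 RNA was present in both genotypes, at 692 UMIs in WT sorted and 1482 in KO sorted. Within the effectors, Cd200r1 had 8 UMIs in 6 of 150 WT sorted cells (4.0%, Clopper-Pearson interval 1.48 to 8.5) and none in the other 3 libraries. In B cells of WT sorted, 3 of 972 had a Cd200r1 UMI (0.31%), at a median depth of 3118 UMIs. The 0 of 175 in KO sorted effectors allows a share of cells with a UMI of up to 1.71% at 3 counts, and the Clopper-Pearson upper limit is 2.09%. Cd200 had 1 UMI in WT sorted effectors, 18 UMIs in 13 cells of KO sorted, 0 in WT tumor and 4 in KO tumor.

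Promoter sequence is shown for 4 genes that set the effectors apart below, namely Nkg7 among the markers and Klrk1, Gzmb and Gzmk among the genes highest against the CD8 T cell class. Each run holds 250 bases before and 50 bases from the RefSeq start in GRCm38.p6, written 5′ to 3′ on the gene's strand. Nkg7 is at chr7:43436888-43437187 (plus strand), Klrk1 at chr6:129623815-129624114 (minus), Gzmb at chr14:56262285-56262584 (minus) and Gzmk at chr13:113180916-113181215 (minus). Capitals mark matches on either strand to TGTGGT (core of the RUNX motif), GGTGTG (core of the T-box motif) and TGANTCA (AP-1), families that include known regulators of cytotoxic T cells.
Nkg7: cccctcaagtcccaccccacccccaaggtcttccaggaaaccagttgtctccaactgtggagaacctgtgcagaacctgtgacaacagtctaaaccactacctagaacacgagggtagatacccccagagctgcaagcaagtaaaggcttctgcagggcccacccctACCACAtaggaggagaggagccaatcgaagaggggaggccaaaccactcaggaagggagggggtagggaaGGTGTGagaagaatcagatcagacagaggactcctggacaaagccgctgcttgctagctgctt
Klrk1: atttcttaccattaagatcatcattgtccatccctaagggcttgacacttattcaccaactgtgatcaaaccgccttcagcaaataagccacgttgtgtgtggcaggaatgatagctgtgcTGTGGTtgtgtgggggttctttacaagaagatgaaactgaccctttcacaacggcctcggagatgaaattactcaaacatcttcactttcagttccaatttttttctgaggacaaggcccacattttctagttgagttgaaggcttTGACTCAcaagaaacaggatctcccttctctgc
Gzmb: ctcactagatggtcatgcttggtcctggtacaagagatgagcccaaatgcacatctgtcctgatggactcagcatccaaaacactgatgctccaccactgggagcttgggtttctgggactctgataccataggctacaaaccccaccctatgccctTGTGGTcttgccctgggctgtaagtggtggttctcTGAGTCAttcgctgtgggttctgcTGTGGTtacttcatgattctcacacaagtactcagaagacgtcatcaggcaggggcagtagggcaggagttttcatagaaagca
Gzmk: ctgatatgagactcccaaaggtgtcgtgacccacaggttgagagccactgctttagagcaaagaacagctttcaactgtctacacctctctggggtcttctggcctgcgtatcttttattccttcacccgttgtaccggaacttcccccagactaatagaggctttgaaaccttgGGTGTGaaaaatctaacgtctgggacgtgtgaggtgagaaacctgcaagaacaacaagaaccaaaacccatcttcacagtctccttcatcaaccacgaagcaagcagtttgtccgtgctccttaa
Gzmb held 2 RUNX letters and 1 AP-1 match, Klrk1 held 1 of each, Nkg7 held 1 RUNX and 1 T-box match, and Gzmk held 1 T-box match. No marked matches overlap. Over all 32851 promoters of the table, TGTGGT was found in 16.8%, GGTGTG in 19.0% and TGANTCA in 7.81%. Of the 10 genes highest in effectors against CD8 T cells, 8 are in the promoter table, and 4 of those hold TGTGGT (Gzmb, Klrk1, S100a6 and Serpina3g), 1 holds GGTGTG and 2 hold TGANTCA. Of the 10 lowest, 8 are in the table, and 0 hold TGTGGT, 4 hold GGTGTG (Bach2, Igfbp4, Il6ra and Lef1) and 0 hold TGANTCA. These matches describe letters in a window and were not tested as binding sites.

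The class carried the RNA its name calls for. Cd8a, the alpha chain of the coreceptor (GENCODE vM21 on GRCm38, chr6:71373427-71379173, plus strand), was at 522 and 508 CPM in WT and KO sorted effectors and at 806 and 499 CPM in WT and KO tumor effectors. NK cells had 4.99 and 5.10 in the sorted libraries, so the effectors of all 4 libraries lay far above them, while the CD8 T cells had 415 and 426. The chemokine Ccl5 (chr11:83525778-83530518, minus strand) was at 11328, 4533, 5398 and 6435 CPM in effectors of the 4 libraries in that order. CD8 T cells had 373 and 90.5 in the sorted libraries and NK cells 1188 and 1749, so effectors were the highest of the 3 classes in both. Nkg7, a cytotoxic granule membrane protein (chr7:43437073-43438249, plus strand), was at 2298, 1248, 981 and 1879. Ms4a4b, a membrane protein of the MS4A family (chr19:11443553-11467055, plus strand), was at 2074, 1520, 2033 and 1776. Both lay above the CD8 T cells of the sorted libraries, which had 518 and 274 for Nkg7 and 730 and 1058 for Ms4a4b. NK cells had 1364 and 1000 CPM of Nkg7, below the effectors of the same library, with the smaller gap in KO sorted.

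**Figure D1:**
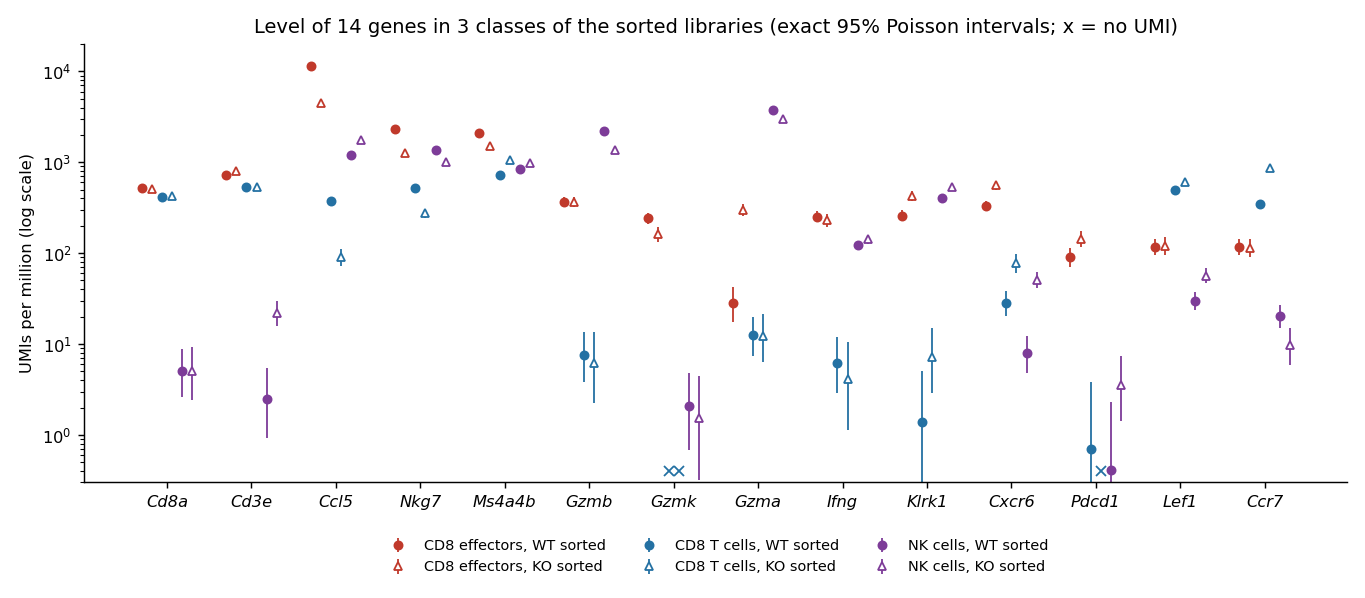
CPM (log axis) of 14 genes in CD8 effectors, CD8 T cells and NK cells of the WT sorted (filled circles) and KO sorted (open triangles) libraries, 1 library per point, with exact 95% Poisson intervals and a cross where no UMI was counted. Effectors share Cd8a and Cd3e with CD8 T cells, and Ccl5 at 11328 and 4533 is above both other classes.

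A Cd8a or Cd8b1 UMI was found in 84.7% of WT sorted effectors (interval 77.9 to 90.0) and 70.3% of KO sorted ones (62.9 to 76.9), against 0.51% and 0.53% of B cells, whose median depths were 3118 and 2168 UMIs. Thinning each cell to 1000 UMIs, which left out 8 and 6 effectors, gave 62.0% and 53.3%. A UMI of a CD3 gene was found in all 150 WT sorted effectors and in 96.0% of KO sorted ones, and in 94.4% and 82.8% after thinning. The effector name therefore covers cells without a CD8 UMI, 23 of 150 in WT sorted and 52 of 175 in KO sorted, which are described further on. Cd4 had a UMI in 1.3% and 2.9% of effectors.

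The authors named the cells from their expression, so the comparison with the CD8 T cell class (239 and 245 cells in the sorted libraries) describes how the classes differ and is no test. Ratios were taken from summed UMIs relative to the median gene, and a gene was counted when it was at least 2-fold away in the same direction in both sorted libraries. Of 3686 genes with at least 50 UMIs, 127 were higher in effectors (3.45%) and 52 were lower (1.41%). Genes of cytotoxicity, chemokine secretion, tissue homing and killer cell receptors were on the higher side, and genes of naive and central memory cells on the lower.

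Klrk1, which encodes the activating receptor NKG2D, was among the genes furthest apart, at 258 and 424 CPM in WT and KO sorted effectors against 1.39 and 7.20 in CD8 T cells, a log2 ratio of 7.29 and 5.72. Serpina3g, a serine protease inhibitor of activated lymphocytes, was at 196 and 204 against 1.39 and 2.06. S100a4 was at 777 and 801 against 13.9 and 9.26, and its family member S100a6 at 1601 and 2001 against 31.2 and 49.4. The effector cytokine Ifng was at 252 and 231 against 6.24 and 4.11. Gzmk had no UMI in either CD8 T cell library and 242 and 160 CPM in effectors, at least 6.61 and 5.54 on the log2 scale when 3 UMIs stand for the 0 of each library. Gzmb gave 365 and 366 against 7.63 and 6.17. For each of these genes, both effector libraries lay above both CD8 T cell libraries, and the genotypes differed by far less than the classes.

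On the lower side, Igfbp4 was at 11.5 and 20.1 CPM in effectors and 209 and 283 in CD8 T cells, and Dapl1 at 43.5 and 9.26 against 545 and 208. Both are transcripts of naive CD8 cells. Il6ra, a receptor chain for interleukin 6, was at 17.9 and 7.71 against 88.8 and 132. Lef1, a transcription factor of naive and memory T cells, was at 118 and 120 against 501 and 604. Ccr7, the lymph node homing receptor, was at 118 and 114 against 350 and 862, so it was reduced in effectors without being at 0.

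Lists of genes showed how broad these differences were, counting members with at least 20 UMIs that were 1.5-fold or more from the median gene. Over all genes, that rule took 15.9% as higher and 14.1% as lower in WT sorted, and 18% and 16.1% in KO sorted. Of the cytotoxic granule genes, 15 of 18 were higher and 0 lower in WT sorted, with a median log2 ratio of 1.68, and 14 of 15 were higher in KO sorted, with a median of 2.12. Killer cell receptors shared with NK cells were higher for 12 of 14 members (median 3.75) and 16 of 16 (4.88). Of the coinhibitory receptors and exhaustion genes, 13 of 15 (median 2.29) and 14 of 17 (2.15) were higher and 1 lower in each library. Pdcd1, which encodes PD-1, had 90.8 and 143 CPM in effectors against 0.694 and 0. Of the effector transcription factors, 15 of 19 were higher in WT sorted and 16 in KO sorted. The naive and memory genes ran the other way, with 14 and 15 of 17 lower, 0 higher, and medians of -1.24 and -1.79. Markers of other cells were also higher in effectors. NK cell markers were higher for 8 of 9 and 10 of 10 members and gamma delta T cell genes for 5 of 5 and 4 of 4. B cell markers were higher for 9 of 10 members in WT sorted (330 CPM summed in CD8 T cells and 998 in effectors) and 5 of 8 in KO sorted (546 and 728), and their part in the other differences was not tested. T cell receptor and CD3 genes were shared by the classes, with 0 of 17 members apart in WT sorted and a median of 0.14, and 1 higher and 2 lower in KO sorted.

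**Figure D2:**
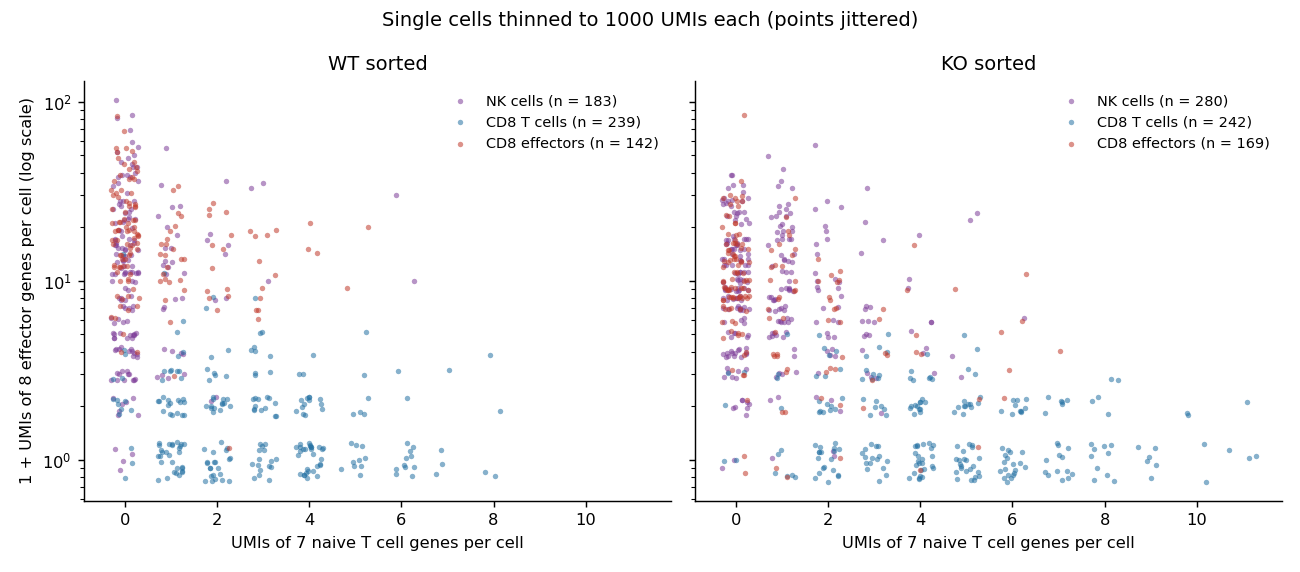
Each point is a cell thinned to 1000 UMIs, with its UMIs of 7 naive T cell genes (x axis) and 1 plus its UMIs of 8 effector genes (y axis, log scale), in WT sorted (left) and KO sorted (right). CD8 effectors sit at low x and high y, with medians of 15 and 8 effector-gene UMIs, and CD8 T cells at a median of 0. The genes include class markers and genes furthest apart between these classes, so the separation is no test.

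The classes were also described cell by cell. The genes used include class markers and genes furthest apart between these same classes, so the separation was built in and is no test. At 1000 UMIs per cell, the summed UMIs of Ccl5, Nkg7, Gzma, Gzmb, Gzmk, Ctla2a, Ccl4 and Cxcr6 had a median of 15 in 142 WT sorted effectors and 8 in 169 KO sorted effectors. The median was 0 in CD8 T cells of both libraries and 10 and 8 in NK cells. UMIs of Ccr7, Lef1, Tcf7, Dapl1, Igfbp4, Satb1 and Il7r had a median of 0 in effectors of both libraries and of 3 and 4 in CD8 T cells. The plot of single cells also shows a tail of effectors with several naive-gene UMIs, and 62.0% of WT sorted and 58.0% of KO sorted effectors had none.

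Against NK cells (186 and 287 cells), the effectors differed by their T cell receptor apparatus and by the kind of granzyme. Of 5327 genes with at least 50 UMIs, 153 were at least 2-fold higher in effectors in both libraries (2.87%) and 208 lower (3.9%). Cd8b1, the beta chain of the coreceptor, was at 834 and 480 CPM in effectors and 6.24 and 3.06 in NK cells. Cd3e, a signalling chain of the CD3 complex, was at 719 and 793 against 2.50 and 21.9. Themis, a T cell signalling protein, was at 132 and 268 against 2.50 and 1.53. At the 1.5-fold rule, which took 23% of all genes as higher and 23.2% as lower in WT sorted and 16.4% and 16.7% in KO sorted, 14 and 13 of 17 T cell receptor and CD3 genes were higher in effectors and 0 lower. Macrophage RNA also differed between the classes in WT sorted, where 16 of 16 monocyte and macrophage markers were lower in effectors and the list summed to 6946 CPM in NK cells and 1519 in effectors. In KO sorted, 4 of 12 were lower and 1 higher, with sums of 934 and 653. UMIs of at least 3 B cell or at least 3 macrophage markers were found in 36 of 186 WT sorted NK cells and 15 of 287 KO sorted ones, and in 8 of 150 and 4 of 175 effectors. The part of this RNA in the ratios to NK cells was not tested.

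NK cell marker genes were low but not at 0 in the effectors. Of 12 NK cell markers, 11 were lower in effectors in both libraries, with median log2 ratios of -4.57 and -2.86. Summed over the 12, the list was at 559 CPM in WT sorted effectors and 1733 in KO sorted ones, against 11596 and 10451 in NK cells. The list includes Gzma, at 22 and 193 UMIs in these effectors, and the KO sorted Gzma UMIs rested on few cells, as given below. Ncr1, which encodes the NK receptor NKp46, was at 6.40 and 13.9 CPM in effectors and 523 and 301 in NK cells. Prf1, the pore-forming protein perforin, was at 90.8 and 160 in effectors, 1361 and 1241 in NK cells, and 34.7 and 52.5 in CD8 T cells. Of the cytotoxic granule genes as a whole, 13 of 21 were lower in effectors than in NK cells and 5 higher in WT sorted, and 12 and 3 in KO sorted.

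Granzyme RNA had a different make-up in the 2 classes. In WT sorted effectors, 565 granzyme UMIs were 50.4% Gzmb, 33.5% Gzmk and 3.9% Gzma. NK cells of the same library had 75755 granzyme UMIs, of which 31.4% were Gzmc, 17.8% Gzmd, 16.2% Gzmf, 12.0% Gzma and 7.0% Gzmb, with Gzmk at 0.0%. Gzmc was at 14.1 and 10.8 CPM in effectors against 9880 and 2627 in NK cells. Gzmk therefore marked effectors against NK cells, and the Gzmc to Gzmg group marked NK cells. In KO sorted effectors, 560 granzyme UMIs were 42.3% Gzmb, 34.5% Gzma and 18.6% Gzmk, and the Gzma share rested on few cells, as given below. NK cells also had a larger Gzma share of granzyme UMIs in KO sorted, but not a higher Gzma level. Gzma was 9101 of all 2404145 UMIs of NK cells in WT sorted and 5794 of 1960534 in KO sorted. The 18215 granzyme UMIs of KO sorted NK cells were 31.8% Gzma, 28.3% Gzmc, 14.5% Gzmb, 12.0% Gzmd and 6.6% Gzmf. In KO tumor, 2111 granzyme UMIs of NK cells were 60.5% Gzma and 19.9% Gzmc, with Gzmf at 0.1%.

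**Figure D3:**
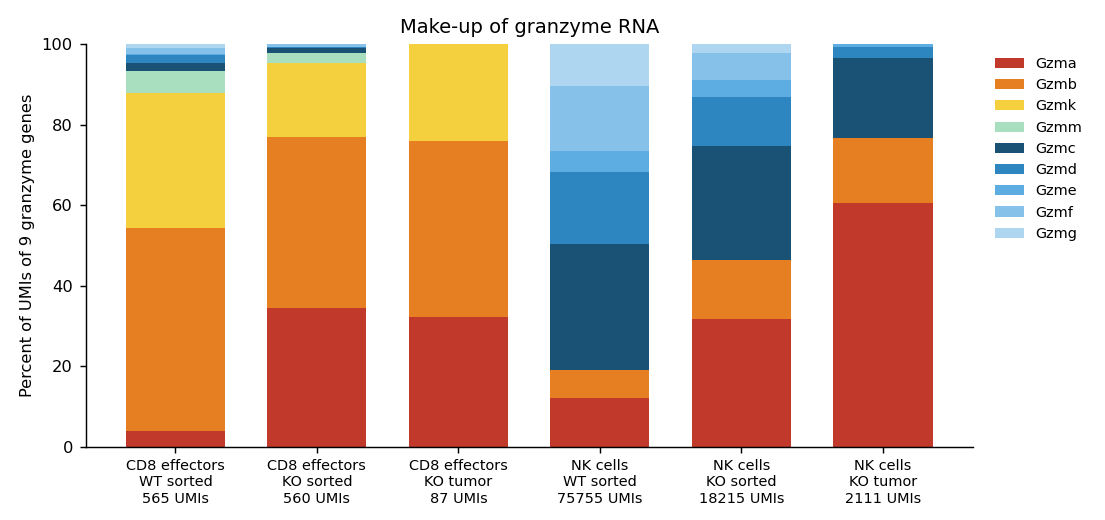
Stacked bars give the percent of the UMIs of 9 granzyme genes that each gene took in CD8 effectors and NK cells of 3 libraries, with the UMI total under each bar. Gzmb and Gzmk lead in WT sorted effectors (50.4% and 33.5%), while Gzmc, Gzmd and Gzmf lead in WT sorted NK cells.

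The effectors were not uniform. Cells were split by whether a Cd8a or Cd8b1 UMI was seen after thinning to 1000 UMIs, which gave 88 cells with and 54 without in WT sorted and 90 and 79 in KO sorted. Absence at this depth does not show absence of the protein. The median depths before thinning were 4548 and 5744 in WT sorted and 3012 and 3950 in KO sorted, so cells without a CD8 UMI were the deeper ones.

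Cells with a CD8 UMI more often carried UMIs of Gzmk, Cxcr6 and coinhibitory receptors. Gzmk was seen in 35.2% of them (interval 25.3 to 46.1) against 5.6% (1.2 to 15.4) of cells without in WT sorted, and in 22.2% (14.1 to 32.2) against 5.1% (1.4 to 12.5) in KO sorted. Cxcr6, a receptor of tissue-residing T cells, was seen in 43.2% against 5.6% and in 53.3% against 29.1%. A Pdcd1, Lag3 or Havcr2 UMI was seen in 22.7% against 3.7% and in 35.6% against 12.7%. The order was the same in both libraries for these 3 readouts, and the intervals were apart in each. Ly6c2 ran the other way, at 36.4% (26.4 to 47.3) against 66.7% (52.5 to 78.9) in WT sorted. In KO sorted it was at 24.4% (16.0 to 34.6) against 46.8% (35.5 to 58.4), so its intervals were apart too. Ifng was at 19.3% against 16.7% and at 18.9% against 20.3%, with overlapping intervals.

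Cells without a CD8 UMI more often carried innate-like genes. A UMI of Klrk1, Klrc1, Klrc2, Klre1 or Klra7 was seen in 53.7% of them (interval 39.6 to 67.4) against 19.3% (11.7 to 29.1) of cells with CD8 in WT sorted, and in 75.9% (65.0 to 84.9) against 46.7% (36.1 to 57.5) in KO sorted. Trdc, the constant region of the delta chain of the other T cell receptor, was seen in 7.4% against 1.1% and in 8.9% against 1.1%. The NK genes Ncr1 or Klrb1c were seen in 9.3% against 0.0% and in 15.2% against 1.1%. The intervals of Trdc overlap in both libraries, as do those of Ncr1 or Klrb1c in WT sorted. A CD3 gene was seen in 90.7% (79.7 to 96.9) of WT sorted cells without a CD8 UMI against 96.6% (90.4 to 99.3) with one. In KO sorted it was seen in 68.4% (56.9 to 78.4) against 95.6% (89.0 to 98.8), with intervals apart.

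Levels over all UMIs of cells split by any CD8 UMI showed the same contrast. In WT sorted, Trdc was at 28.7 CPM in the 127 cells with a CD8 UMI and 402 in the 23 without. In KO sorted it was at 22.1 in 123 cells and 252 in 52. The chemokine Xcl1, which attracts cross-presenting dendritic cells, was at 168 and 804 in WT sorted and 126 and 770 in KO sorted. Pdcd1 was at 107 and 0 in WT sorted and 194 and 25.7 in KO sorted. Ctla4 was at 119 and 8.4, and at 745 and 108. For each of these genes, cells without a CD8 UMI differed from cells with one in the same direction in both libraries.

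Gzmb, unlike Gzmk, did not keep 1 order across the CD8 split. It was seen in 27.3% (18.3 to 37.8) of WT sorted cells with a CD8 UMI and 9.3% (3.1 to 20.3) without, and in 18.9% (11.4 to 28.5) and 26.6% (17.3 to 37.7) in KO sorted, and both pairs of intervals overlap. A Gzma, Gzmb or Gzmk UMI was seen in 38.7% of thinned WT sorted effectors and 34.9% of KO sorted ones, and without thinning in 55.3% and 57.1%, against 6.2% and 3.4% of B cells. In WT sorted, Cxcr6 was seen in 50.9% of cells with a granzyme UMI and 14.9% of those without. In KO sorted the shares were closer, at 47.5% and 39.1%.

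The effectors made up 2.87% of all cells in WT sorted (interval 2.44 to 3.36) and 4.07% in KO sorted (3.49 to 4.70). Among CD4, CD8 and effector T cells they made up 23.5% (20.3 to 27.0) and 28.4% (24.8 to 32.1). Among CD8 T cells and effectors together, they made up 38.6% (33.7 to 43.6) and 41.7% (36.9 to 46.5). The intervals of the first pair do not overlap and those of the other pairs do, and all cover counting error only. When both CD8 classes were limited to cells with a Cd8a or Cd8b1 UMI, the intervals of all 3 pairs overlapped. The first pair became 2.45% (2.05 to 2.91) and 2.91% (2.42 to 3.46), the second differed by 1.44 percentage points in place of 4.82, and the third by -0.63 in place of 3.11. In the total tumor libraries they made up 0.20% of WT tumor (0.10 to 0.37) and 1.03% of KO tumor (0.79 to 1.33). Among CD4, CD8 and effector T cells the order was reversed, but WT tumor held 0 cells named CD4 T cells and KO tumor 75. There the effectors were 47.6% of 21 cells (25.7 to 70.2) and 28.4% of 215 (22.5 to 34.9). The 21 WT tumor cells are thus the same with and without the CD4 class. Among CD8 T cells and effectors, the effectors were 47.6% of 21 and 43.6% of 140 (35.2 to 52.2). Both of these pairs overlap. Other lymphocytes were also more numerous in KO than WT tumor. CD8 T cells numbered 79 and 11, CD4 T cells 75 and 0, NK cells 79 and 12, and B cells 327 and 58.

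The comparison of KO sorted with WT sorted effectors asks how loss of the CD200 receptor in the host goes with effector RNA. Relative to the median gene, 357 of 3880 genes with at least 50 UMIs were at least 2-fold higher in KO (9.2%) and 455 were lower (11.7%). Scaling by total UMIs gave 891 higher and 167 lower, because the median gene itself was 0.40 higher in KO on that log2 scale. The same shift was 0.53 in CD8 T cells, 0.36 in NK cells and 0.45 in B cells of the same libraries.

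Most of the lower genes were lower in other classes too. Of the 447 lower genes that also had 50 UMIs in CD8 T cells, 325 were lower there (72.7%, and 58.3% of the 557 lower genes of CD8 T cells), and of the 299 higher genes 143 were higher there (47.8%, and 42.9% of 333). No gene counted in effectors was counted in the opposite direction in CD8 T cells. The lower genes included 55 of the 86 ribosomal protein genes tested, and the higher genes included 3. KO and WT effectors are therefore given below beside the ratios of CD8 T, NK and B cells, and the part of library-wide differences in any 1 gene was not tested.

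**Figure D4:**
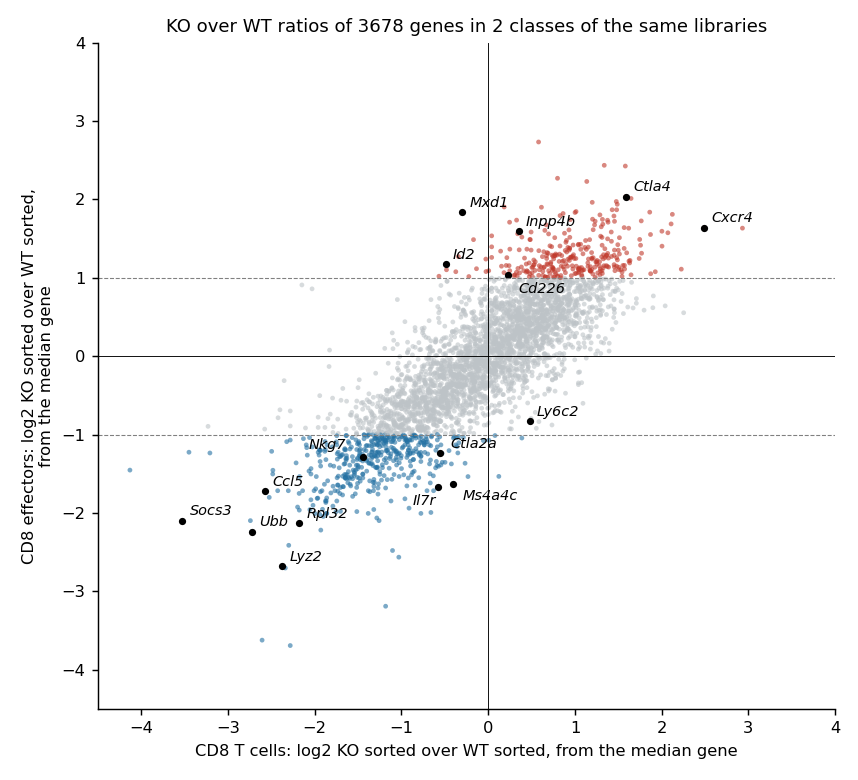
Each point is 1 of 3678 genes, with its log2 ratio of KO sorted over WT sorted in CD8 T cells (x axis) and in CD8 effectors (y axis), both relative to the median gene; genes at least 2-fold higher or lower in effectors are red or blue. Most points lie along the diagonal, and Mxd1 and Id2 are higher in KO effectors at ratios near or below 0 in CD8 T cells.

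The lowest genes in KO effectors were Apoe (log2 ratio -2.70) and Lyz2 (-2.68), transcripts of macrophages, and both were lower in CD8 T cells (-2.34 and -2.38), NK cells and B cells as well. Of the monocyte and macrophage markers with 20 UMIs, 7 of 10 were lower in KO effectors and 0 higher, and the list summed to 1519 CPM in WT and 653 in KO effectors. A macrophage marker UMI was seen in 60.0% of WT and 35 of 175 KO effectors and in 50.4% and 12.1% of B cells. The B cell marker list was also lower in KO, for 9 of 11 members, with sums of 998 and 728. Socs3, a brake on cytokine signalling, was at 285 and 87.9 CPM in effectors and 649 and 81.2 in CD8 T cells.

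Of the class markers, Ccl5 was lower in KO sorted effectors, at 4533 against 11328 CPM, a log2 ratio of -1.72 (interval -1.78 to -1.66). The ratio was -2.57 in CD8 T cells, -1.89 in B cells and 0.20 in NK cells. Nkg7 was lower at -1.28 (-1.40 to -1.16), beside -1.45, -1.17 and -0.81. Ms4a4b did not reach 2-fold, at -0.85 (-0.97 to -0.74), beside 0.01 in CD8 T cells. Cd8a was at nearly the same CPM in both, while Cd8b1 was lower at -1.20, beside -1.16 in CD8 T cells.

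Among T cell receptor and CD3 genes, 7 of 17 were at least 1.5-fold lower and 1 higher, with a median log2 ratio of -0.42, beside -0.54 in CD8 T cells. At that rule, 25.5% of all 6644 genes were higher and 23.7% lower. The receptor chain Trbc2 was at -1.42, and the CD3 chains Cd3g at -1.40 and Cd3d at -1.30, while Cd3e was at -0.26. Thy1, a surface glycoprotein of T cells, was the higher member at 0.79. CD8 T cells gave -1.22, -1.78 and -1.51 for Trbc2, Cd3g and Cd3d.

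Cytotoxic granule genes had 2 of 16 members higher and 7 lower in KO effectors, with a median of -0.48, beside -0.90 in CD8 T cells and -0.71 in NK cells. Scaling by total UMIs gave a median of -0.07. Gzmb was at 365 and 366 CPM in WT and KO sorted effectors, with intervals of 324 to 410 and 321 to 415, and its ratio relative to the median gene was -0.40. Gzmk was lower, at 242 (209 to 279) and 160 (131 to 194). Ctla2a, an inhibitor of cathepsins, was at 1185 and 662, a ratio of -1.24 beside -0.56 in CD8 T cells. Serpinb9, which protects killer cells from granzyme B, was higher, at 35.8 and 130, a ratio of 1.45 beside 0.23 in CD8 T cells and 1.08 in NK cells. Perforin did not reach 1.5-fold, with a ratio of 0.42 (-0.03 to 0.87).

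Gzma was the highest granule gene by ratio, and 1 cell gave most of it. It had 22 UMIs in 7 WT sorted cells and 193 UMIs in 15 KO sorted cells, a ratio of 3.00 (2.36 to 3.71). A single KO cell held 133 of the 193 UMIs, which is 68.9%, and 5 cells held 94.3%. The ratio was 2.81 with the top cell of each library left out, 1.61 with every cell weighted equally, and 1.61 without cells that had an Ncr1, Klrb1c or Trdc UMI. A Gzma UMI was found in 4.7% of WT and 8.6% of KO sorted effectors and in 4.2% and 2.1% of B cells, so the WT share was at the level of cells that should lack the gene.

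Of 4 effector chemokines with 20 UMIs, 0 were higher and 1 lower at 1.5-fold, and of 6 cytokines 2 were higher and 1 lower. Ccl4, an inflammatory chemokine, had 488 and 795 UMIs and a ratio of 0.57, which was 0.19 without the top cell of each library, since 1 KO cell held 230 UMIs. Xcl1 had 207 UMIs in each library and a ratio of -0.13 (-0.42 to 0.15). Ifng was at 252 and 231 CPM, a ratio of -0.53 (-0.84 to -0.21).

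Killer cell receptors shared with NK cells were higher in KO effectors for 10 of 16 members and lower for 2, with a median of 0.88. The median was 0.10 over 23 members in NK cells and -2.03 over the 5 members that reached 20 UMIs in CD8 T cells. Klra7, a Ly49 receptor, was at 88.3 and 284 CPM, a ratio of 1.28 (0.88 to 1.70) beside -0.10 in NK cells. Klrb1c, which encodes NK1.1, was at 25.6 and 98.7 (1.55, 0.80 to 2.35), and Klrc2, an activating NKG2 receptor, at 76.8 and 221 (1.12). Cells with a UMI of Klrk1, Klrc1, Klrc2, Klre1 or Klra7 were 52.7% of WT sorted (44.4 to 60.9) and 73.1% of KO sorted effectors (65.9 to 79.5), and 32.4% and 60.4% after thinning, with 2.2% of B cells in each library.

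NK cell markers moved with these receptors in the effectors. All 9 NK markers with 20 UMIs were higher in KO at 1.5-fold, with a median of 0.91 beside 0.20 in NK cells themselves. Of these 9, Fcer1g, Klra7, Klra9, Klrb1c, Klre1 and Tyrobp stand in the receptor list too, and Gzma, Irf8 and Eomes stand in other lists. All 12 markers of the full list had UMIs in effectors of both libraries. Ncr1 or Klrb1c was found in 11.3% of WT and 18.9% of KO sorted effectors, or 3.5% and 7.7% after thinning, against 1.2% of B cells in each library. Fcer1g, an adapter chain of NK receptors, was at 104 and 248 CPM. Without the cells that had an Ncr1, Klrb1c or Trdc UMI, 23 in WT and 40 in KO sorted, the median of the killer receptors was 0.63 and the ratio of Klra7 was 0.63. Limited to cells with a CD8 UMI, the median was 0.83 and Klra7 was at 1.57. Klrb1c is itself a member of the receptor list, so that filter acts on a gene being compared, and the part of NK-like or gamma delta cells in these differences was not tested. Of 5 gamma delta T cell genes, 0 were higher and 0 lower.

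Receptors of homing and adhesion were higher for 7 of 13 members and lower for 2, with a median of 0.74 beside 0.91 in CD8 T cells. The integrin chain Itgal was at 177 and 724 CPM, a ratio of 1.63 that was within 0.05 of those in CD8 T, NK and B cells. Cxcr4 was at 125 and 515, with a ratio of 1.64 beside 2.49, 2.35 and 2.24. Ccr2, a receptor for monocyte chemoattractants, was at 56.3 and 188 (1.34 beside 1.14 in CD8 T cells). Cxcr3, the receptor for interferon-induced chemokines, was lower, at 143 and 75.6 (-1.32 beside -0.57), while Cxcr6 was at 330 and 557 (0.35 beside 0.91).

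Itga1, the alpha chain of the VLA-1 collagen receptor found on tissue-resident T cells, was one of the genes furthest apart. It had 11 UMIs in 9 WT sorted effectors and 95 UMIs in 48 KO sorted ones, so 6.0% (2.78 to 11.1) and 27.4% (21 to 34.7) of cells had a UMI, against 0.21% and 0.11% of B cells. Thinned shares were 2.1% and 10.1%. The ratio was 2.98 (2.07 to 4.03), NK cells gave 0.23, and CD8 T cells had 0 and 1.03 CPM. Of 8 residency genes, 3 were higher and 1 lower.

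Transcription factors of effector cells were higher for 13 of 19 members and lower for 1, with a median of 1.05 beside 0.61 in CD8 T cells and 1.0 in NK cells. Irf8 was at 20.5 and 119 CPM, a ratio of 2.13 (1.34 to 3.01) beside 0.95 and 0.69. Id2, which restrains E proteins and holds the effector state, was at 389 and 1162 (1.18, 0.98 to 1.37), whereas CD8 T cells were at 212 and 218, a ratio of -0.49, and NK cells gave 0.39. Bhlhe40, a factor of resident and cytokine-producing T cells, was at 235 and 670 (1.11) beside -0.55 in CD8 T cells and 0.75 in NK cells. Prdm1, which encodes Blimp-1, was at 28.2 and 95.6 (1.36), and Ikzf2, which encodes Helios, at 203 and 711 (1.40 beside 2.0 in CD8 T cells). Tbx21 was at 34.5 and 91.0 and Eomes at 101 and 208, the master T-box factors of cytotoxic cells, with ratios of 1.0 and 0.64.

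Naive and memory genes had 3 of 17 members higher and 4 lower, with a median of -0.27 that was 0.13 when scaled by total UMIs and 0.30 after thinning. Id3, the counterpart of Id2 in memory precursors, was at 64.0 and 9.26 CPM (-3.19 beside -1.18 in CD8 T cells). Il7r, the receptor chain for the survival cytokine interleukin 7, was at 312 and 130 (-1.67, -2.05 to -1.31), and CD8 T cells were at 417 and 402 (-0.58). Klf2, which maintains circulation, was at 2056 and 927 (-1.55 beside -0.80). Lef1 and Ccr7 did not reach 1.5-fold, at -0.37 and -0.45.

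Coinhibitory receptors and exhaustion genes were higher for 6 of 15 members and lower for 2, with a median of 0.44 beside 1.06 in CD8 T cells. Ctla4, the receptor that competes with CD28 for its ligands, had 80 UMIs in 48 WT effectors and 359 in 90 KO effectors, at 102 and 554 CPM. The ratio was 2.03 (1.68 to 2.40), and CD8 T cells gave 1.58, NK cells 1.15 and B cells 1.62. Cells with a Ctla4 UMI were 32.0% and 51.4%, or 8.5% and 35.5% after thinning, against 0.41% and 1.9% of B cells. Pdcd1 at 0.26 (-0.20 to 0.72), Lag3 at 0.27 (-0.21 to 0.76) and Havcr2 at 0.19 (-0.72 to 1.11) had intervals that include 0. Beside these, the list of CD4 helper and regulatory T cell genes, which holds Ctla4 and Ikzf2, had 3 of 3 members with 20 UMIs higher in KO effectors (Ctla4, Ikzf2 and Tnfrsf4). Its 10 members summed to 326 CPM in WT and 1392 CPM in KO effectors, while Cd4 itself had a UMI in 1.3% and 2.9% of them, and the part of such cells was not tested. Tnfrsf4 changed sign after thinning and with equal cell weights. Cd160, a receptor of cytotoxic lymphocytes, was lower at -1.73 beside -1.43 in CD8 T cells.

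Cytokine receptors had 6 of 15 members higher and 1 lower, led by Il2rb, the shared chain of the interleukin 2 and 15 receptors, at 1.29 beside 1.36 in CD8 T cells. Costimulatory receptors had 5 of 10 higher and 1 lower, with a median of 0.79 that was 0.11 with every cell weighted equally. Among other genes furthest above the median gene, Fgl2, a secreted protein of regulatory and effector T cells, had 52 and 261 UMIs (2.20 beside 1.33 in NK cells), and Rbpj, the nuclear factor of Notch signalling, had 29 and 149 (2.23 beside 1.14 in CD8 T cells).

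Metabolic and antigen presentation genes were more often lower than higher in KO effectors. Of 34 oxidative phosphorylation genes, 19 were lower and 0 higher, with a median of -0.71 beside -0.87 in CD8 T cells, -0.79 in NK cells and -1.08 in B cells. Of 19 glycolysis and hypoxia genes, 9 were lower and 4 higher. Of 18 MHC class I presentation genes, 7 were lower and 0 higher, with the immunoproteasome subunit Psmb8 at -1.81 beside -1.96 in CD8 T cells. These counts are relative to the median gene. The summed level of the MHC list did not fall, at 12760 CPM in WT and 13748 in KO effectors. The type I interferon response had 10 of 29 lower and 2 higher, and its median of -0.34 was 0.06 when scaled by total UMIs. Immediate early genes were mixed, with 9 of 26 higher and 5 lower, Nr4a2 at 1.35 and Jun at -1.60, beside 1.5 and -1.48 in CD8 T cells.

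**Figure D5:**
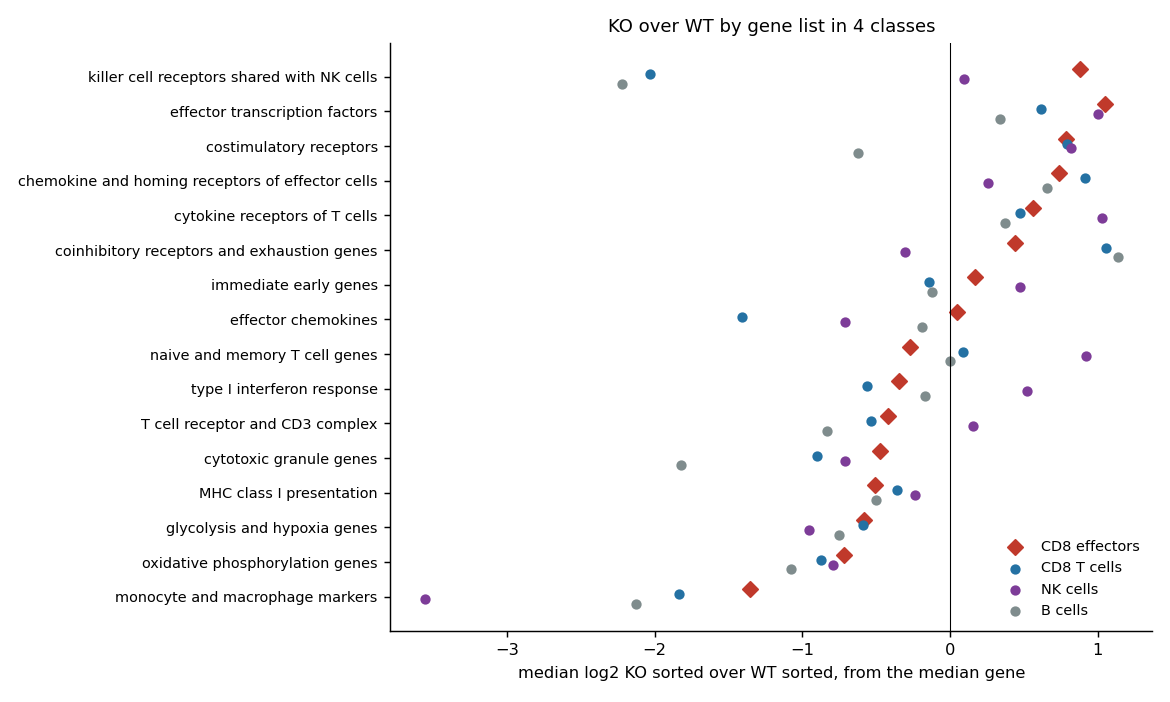
Median log2 ratio of KO sorted over WT sorted (x axis, relative to the median gene) of the members with at least 20 UMIs of each gene list, in CD8 effectors (diamonds), CD8 T cells, NK cells and B cells of the same 2 libraries. Killer receptors lie at 0.88 in effectors and 0.10 in NK cells, and oxidative phosphorylation genes lie below 0 in all 4 classes.

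Some genes counted in effectors were under 1.5-fold in CD8 T cells, and several of them differed likewise in NK or B cells. Of the 299 higher genes with 50 UMIs in both classes, 65 were under 1.5-fold there (21.7%), and the intervals of 13 were apart. Of the 447 lower genes, 29 were under 1.5-fold (6.49%), and 7 were apart. The genes named next were chosen after their values were seen, from the 11 with at least 100 UMIs in effectors and intervals apart, leaving out the predicted gene Gm20186. Mxd1, an antagonist of Myc, was at 44.8 and 211 CPM in effectors and 59.7 and 69.9 in CD8 T cells, with ratios of 1.84 and -0.30, while NK cells gave 1.78. Inpp4b, a phosphoinositide phosphatase, was at 1.59 and 0.35, with 0.38 in NK cells and 1.08 in B cells. The costimulatory receptor Cd226 was at 1.04 and 0.22, and NK cells gave 1.08. Sema4a was at 1.36 and 0.36, with 0.81 in NK cells, and Rps6ka1 at 1.34 and 0.14, with 0.36. Id2 and, on the lower side, Il7r and Ctla2a belong to the same set, and Il7r was at -1.68 in NK cells and Ctla2a at -2.34 in B cells. Ms4a4c, a relative of Ms4a4b, was at -1.63 and -0.41, with -0.90 in NK cells and -1.05 in B cells. Pnn was at -1.15 and -0.36, with -0.37 in NK cells.

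The total tumor libraries held 10 and 61 effectors, so WT tumor gives levels only roughly. KO tumor effectors carried Ccl5 at 6435 CPM (6053 to 6835) and Nkg7 at 1879 (1676 to 2101), both above KO sorted. Gzmb was at 231 (164 to 317) and Gzmk at 128 (79.1 to 195). Itga1 was at 54.7, Ctla4 at 231 and Klra7 at 140 in KO tumor, each between the WT sorted and KO sorted levels. A UMI of Klrk1, Klrc1, Klrc2, Klre1 or Klra7 was seen in 54.1% of KO tumor effectors, or 39.3% after thinning. Those shares were 52.7% and 32.4% in WT sorted and 73.1% and 60.4% in KO sorted. Ncr1 or Klrb1c was seen in 8.2% of KO tumor effectors, or 1.8% after thinning, below the WT sorted shares of 11.3% and 3.5%. Stmn1, a microtubule regulator of dividing cells, was at 334 against 26.9 and 20.1 in WT and KO sorted, and the proliferation gene Mki67 at 164 against 20.5 and 26.2. Stmn1 came from 12 of 61 cells, with 74.5% of its UMIs in 5 of them, and 1 cell held 59.3% of the Mki67 UMIs. An Mki67 or Top2a UMI was seen in 21.3% of KO tumor effectors (11.9 to 33.7), against 23.3% in WT sorted and 21.7% in KO sorted, both inside that interval, at median depths that differ between the libraries. After thinning, the share was 14.3% in KO tumor (8 of 56 cells), 9.2% in WT sorted and 7.7% in KO sorted. KO tumor and KO sorted differ in sorting as well as in depth, and these cannot be told apart.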

How the data were processed

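Single-cell RNA was measured with 10x Genomics 3' chemistry in 16 labelled samples, and alignment to mm10 with Cell Ranger 6.0.1 and analysis with Seurat 4.0.5 are named in the submitters' processing notes. The deposited matrix of 20376 cells and 19715 genes holds natural log values that the authors made from counts scaled to 10000 per cell. The deposited UMI totals per cell allowed the counts to be recovered, and 60957742 nonzero values came out whole within 0.01. Cell names are the authors', and the mitochondrial percent used in the stricter cell filter was computed from the recovered counts. Counts were summed over the cells of a class and library, and log2 ratios were centred on the median gene among genes with at least 50 UMIs. Genes were counted at 2-fold, and members of 35 gene lists with at least 20 UMIs at 1.5-fold. Exact intervals were taken from the Poisson distribution (levels), by the Clopper-Pearson method (shares) and from the binomial distribution of 1 side given both (ratios). Shares were also taken after thinning each cell to 1000 UMIs (seed 1). No doublet call came with the files, and an alternative left out T and NK cells with UMIs of at least 3 B cell markers or at least 3 monocyte and macrophage markers. Named genes were the markers, Cd200r1 and Cd200, and up to 4 members of each list in the direction of its median and 1 against it. Members of 6 lists (T cell receptor, CD8, granule, chemokine, coinhibitory, NK) were also named. So were the 10 highest and 10 lowest genes of each comparison with at least 50 CPM and 100 UMIs. Other genes given with values, and the splits of effectors by a CD8 or granzyme UMI, were chosen after their values were seen. Members and lists were chosen with earlier results of these data known. Cells could not be tied to the labelled samples, so no test between groups was run. The ratio step was checked on simulated counts. Gene positions are from GENCODE vM21 and promoters from RefSeq. Some listed genes are not reported here. Python 3.11.15, NumPy 2.4.6, SciPy 1.17.1 and pandas 2.3.3 were used.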

Additional observations from a re-analysis of the deposited data

How the results depend on the processing

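No paired analysis was possible because cells cannot be assigned to the labelled samples, and for the same reason leaving out a replicate was not run. For KO over WT effectors, the 357 higher and 455 lower genes became 891 and 167 scaled by total UMIs, 109 and 113 after thinning to 1000 UMIs, 707 and 843 at 20 UMIs, 219 and 219 at 100 UMIs, and 917 and 967 at 1.5-fold. For effectors over CD8 T cells, the 127 and 52 became 32 and 17 after thinning, 255 and 117 at 20 UMIs, 68 and 30 at 100 UMIs, and 259 and 211 at 1.5-fold, and 80 were lower with cells weighted equally. For effectors over NK cells, the 153 and 208 became 20 and 32 after thinning, 250 and 372 at 20 UMIs, 94 and 116 at 100 UMIs, and 426 and 484 at 1.5-fold. Stricter minimums, looser minimums and thinning change how many genes are tested. The KO minus WT difference in the share of all cells, 1.19 percentage points, was 0.456 with a CD8 UMI required and 1.81 under a stricter cell filter, and that among CD8 T cells and effectors was -0.63 with a CD8 UMI required.

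Of 1446 values for 145 named genes under the alternatives, 1273 stayed close to the reported value, 161 moved and 12 changed sign. After thinning these were Dapl1 (0.15), Batf (0.89), Tnfrsf4 (-0.17), Rtp4 (0.57), Irgm2 (-0.43), Egr3 (-0.016), Bax (0.57) and Iglc2 (1.15). With equal cell weights they were Tnfrsf4 (-0.45) and Tnfrsf9 (-0.11), and without cells that had an Ncr1, Klrb1c or Trdc UMI they were Cd79a (0.26) and Iglc2 (0.014). Leaving out cells with shared barcodes or the cell with most UMIs of a gene, and the Ncr1, Klrb1c or Trdc filter, were chosen after seeing the data. Depth limits the thinned counts, since fewer genes keep 50 UMIs.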
